A study of Mus musculus with 4 samples.

Results

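Cohesin and condensin are ring-shaped complexes built on pairs of SMC (structural maintenance of chromosomes) ATPases, and the transcripts of their subunits and of the cohesin loader were examined in mouse testis. The set held 10 genes: the condensin ATPases Smc2 and Smc4, the cohesin subunits Smc1a, Smc3, Rad21, Stag1, Stag2 and Stag3, the loader Nipbl, and Smc6 of the SMC5/6 complex. Every probe set with one of these as its single gene symbol was taken. This gave 10 probe sets for 9 of the 10 genes, out of 12422 probe sets that are not controls and 8251 named genes. Stag2 had 2 probe sets, each other gene had 1, and Smc1a had no probe set named here and was not analysed here. They were chosen by their shared function and by the large signal differences of some of them between T+T and T+O, which were already known, so their values between T+T and T+O are given as a description and without a test.

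Cohesin holds sister chromatids together from replication until anaphase and also shapes chromatin loops between divisions. NIPBL, with its partner MAU2, loads it onto DNA. SMC1A and SMC3 are its ATPases, RAD21 closes the ring, and a STAG protein binds to RAD21. Meiotic cells use STAG3, with further meiotic versions of the other subunits, in cohesin along chromosome axes. Condensin compacts chromosomes for division, and the SMC5/6 complex acts in DNA repair and in resolving joined chromosomes. In the testis these proteins serve both dividing spermatogonia and spermatocytes in meiosis.

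RNA came from testes of hypogonadal (hpg) mice, which lack functional gonadotropin-releasing hormone and so make little testosterone of their own. All animals had been pretreated with testosterone propionate (written proprionate in the labels) and then withdrawn from it. The T+T group held 3 arrays. T+T replicate 1 is described as given testosterone propionate for 4 h after the withdrawal, with no length stated for its pretreatment, while the descriptions of T+T replicates 2 and 3 give 2 weeks of pretreatment and end with the withdrawal, so that only their titles place them in T+T. The T+O group held 1 array, pretreated for 2 weeks and then withdrawn. Age, strain background, the length of the withdrawal, and whether an array stands for 1 animal or a pool are not given in the sources used here, so the spread between T+T arrays may be technical.

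Signals are Affymetrix intensities in arbitrary units, multiplied by 1 factor per array (0.779 to 1.33) so that all arrays share a trimmed mean. Across the 7453 probe sets that passed the filter on low values (a mean above 22.7), arrays correlated with r between 0.943 and 0.968. Markers of spermatids were abundant on every array, with a summed signal over 10 genes of 34346 to 44160 in T+T and 34864 in T+O. Sertoli markers (10 of 12 named) summed to 2928 to 3531 in T+T and 3014 in T+O. The sum hides Kitl, with 14.4, 12.6 and 17.4 in T+T, against 49.9 in T+O. Kitl alone of the Sertoli list was below T+O on all T+T arrays, and the median log2 difference of the list was 0.14. Leydig markers (7 of 8 named) summed to 309.8 to 395 in T+T and 351 in T+O. Spermatocyte markers (5 of 10 named) summed to 2218 to 2434 in T+T and 2205 in T+O, a sum made up mostly of Hspa2. Spermatogonia markers (8 of 8 named) summed to 838 to 1187 in T+T and 1243 in T+O, and the members of this list went both ways. In no list was a gene at 0 on any array. In whole testis, fewer cells of a type and less RNA per cell cannot be told apart.

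The promoters of Smc2 and Smc3, among the genes with the lowest T+T signals relative to T+O, and of the meiotic Stag3, which differed little, are shown to set their sequences side by side. They cover 300 bases of GRCm38.p6 from RefSeq, running from 250 bases before to 50 bases after the start of transcription. Of the 10 genes, 6 (Smc1a, Smc2, Smc3, Smc6, Stag1 and Stag3) matched the promoter table. Smc2 lies at chr4:52438971-52439270, Smc3 at chr19:53600146-53600445 and Stag3 at chr5:138280259-138280558, all on the plus strand. Capitals mark matches on either strand to TTTGAA (the cell cycle element CHR), CCAAT and TTCCCGC (an E2F site), with no overlap between matches.
Smc2 promoter: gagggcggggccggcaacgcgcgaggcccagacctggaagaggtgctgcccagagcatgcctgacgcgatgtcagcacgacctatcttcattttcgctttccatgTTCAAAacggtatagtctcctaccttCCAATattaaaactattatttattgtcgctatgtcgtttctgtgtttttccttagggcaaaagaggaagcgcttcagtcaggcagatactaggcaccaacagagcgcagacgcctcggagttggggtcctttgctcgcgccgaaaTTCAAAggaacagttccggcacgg
Smc3 promoter: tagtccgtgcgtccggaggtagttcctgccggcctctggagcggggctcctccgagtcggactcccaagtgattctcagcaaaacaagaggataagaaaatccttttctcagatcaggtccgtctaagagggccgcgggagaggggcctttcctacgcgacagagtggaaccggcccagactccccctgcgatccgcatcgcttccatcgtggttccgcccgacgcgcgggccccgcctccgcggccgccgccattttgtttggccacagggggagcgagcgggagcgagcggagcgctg
Stag3 promoter: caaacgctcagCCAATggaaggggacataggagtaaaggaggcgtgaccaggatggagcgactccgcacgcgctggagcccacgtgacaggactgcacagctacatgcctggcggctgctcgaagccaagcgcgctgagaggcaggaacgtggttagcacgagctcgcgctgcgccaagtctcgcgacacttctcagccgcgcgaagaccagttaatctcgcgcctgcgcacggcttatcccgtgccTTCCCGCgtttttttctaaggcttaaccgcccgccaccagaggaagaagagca
The Smc2 promoter held TTTGAA at 2 places, both on the opposite strand, and CCAAT once. The Stag3 promoter held CCAAT once and TTCCCGC once, and the Smc3 promoter held none of the 3 motifs. Of all 32851 promoters in the table, 17.9% held TTTGAA, 37.4% held CCAAT and 4.6% held TTCCCGC. Such matches describe the letters in these windows and nothing more.

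Both condensin ATPases were far lower on every T+T array than on the T+O array. Smc4 had a signal of 152, 308 and 251 on T+T replicates 1, 2 and 3, against 1526 on T+O. No T+T value came near the T+O value, which was 4.96 times the highest T+T signal, while the T+T arrays differed among themselves by up to 2.03 times. On the log2(signal + 10) scale, where adding 10 damps the noise of dim probe sets, Smc4 had a mean difference of -2.69 with an SD of 0.50 over the 3 T+T arrays. Its partner Smc2 had 7.13, 12.7 and 13.7 in T+T, against 68.3 in T+O. The gap was as wide in proportion, with T+O at 4.98 times the highest T+T signal, but all 3 T+T values lay below the filter level of 22.7, and Smc2 passed that filter only through its T+O value. Its log2 difference was -1.90 (SD 0.26, n = 3).

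The cohesin loader Nipbl had the lowest difference of the 10 probe sets and ranked 2 from the bottom of all 12422, with Smc4 at rank 3. Their order depended on the processing. With the offset raised to the 50th percentile, Nipbl was at -2.14 and Smc4 at -2.57. Over other scalings, other offsets and T+T arrays left out, Nipbl ranged from -3.06 to -2.14. The signal of Nipbl was 17.0, 36.5 and 40.5 in T+T, against 253 in T+O. The T+O value was 6.24 times the highest T+T value, and the log2 difference was -2.72 (SD 0.49, n = 3). Smc3, the cohesin ATPase used in both mitosis and meiosis, followed the same pattern at a smaller size, with 14.7, 32.1 and 33.4 in T+T, against 106 in T+O. The groups did not overlap, and its log2 difference was -1.71 (SD 0.46, n = 3). Smc2 and Smc3 ranked 12 and 20 of the 12422 probe sets.

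**Figure D1:**
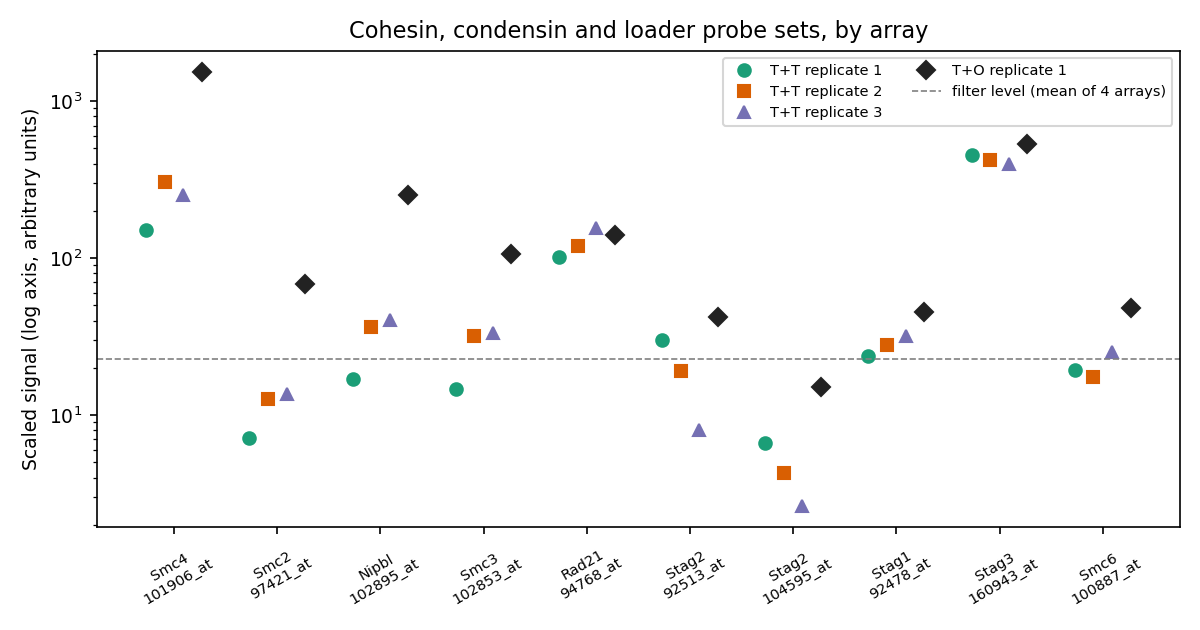
Scaled signal (arbitrary units, log axis) of the 10 probe sets on each array, with T+T replicates 1 to 3 as coloured points and T+O replicate 1 as a black diamond. The dashed line is the filter level of 22.7, which was applied to the mean of the 4 arrays. Smc4, Smc2, Nipbl and Smc3 show the T+O array well above all T+T arrays, and for Rad21 the groups overlap.

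The kleisin Rad21, which binds both cohesin ATPases, did not share the gap of Smc3. It had 102, 119 and 156 in T+T, against 141 in T+O. T+T replicate 3 lay above T+O and the other two arrays below it, so the groups overlapped, and the log2 difference was -0.18 (SD 0.29, n = 3). This was the smallest difference of the 10 probe sets.

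Among the STAG subunits, the mitotic Stag1 and Stag2 lay further below T+O than the meiotic Stag3, and all of them differed much less than Nipbl or Smc4. Stag3 had 456, 425 and 397 in T+T, against 534 in T+O. All T+T values were lower, by 1.17 to 1.35 times, and the log2 difference was -0.32 (SD 0.10, n = 3). Stag1 had 23.9, 28.0 and 31.7 in T+T, against 45.1 in T+O, a log2 difference of -0.55 (SD 0.15, n = 3). Here too the groups did not overlap, and T+O was 1.42 times the highest T+T value. For the mitotic Rad21 the difference was nearer to 0 than for Stag3, so the mitotic subunits as a set did not lie to 1 side of the meiotic one. Stag3 was the only meiotic subunit with a named probe set: none is named here for Smc1b, Rec8 or Rad21l.

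Both Stag2 probe sets placed T+T below T+O on all 3 arrays. After scaling they ordered the T+T arrays alike. Without scaling, T+T replicate 2 was the lowest on the dimmer probe set and T+T replicate 3 on the brighter. The brighter one had 29.9, 19.2 and 8.02 in T+T, against 41.9 in T+O, a log2 difference of -0.91 (SD 0.58, n = 3). Its T+T arrays differed among themselves by 3.73 times, the widest spread of the 10 probe sets. The dimmer one had 6.67, 4.25 and 2.65 in T+T, against 15.2 in T+O, a log2 difference of -0.80 (SD 0.20, n = 3). It did not pass the filter, and without detection calls it could not be judged whether so dim a signal lay above background.

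Smc6, one of the paired ATPases of the SMC5/6 complex, had a log2 difference close to the -0.91 of the brighter Stag2 probe set. It had 19.4, 17.4 and 25.2 in T+T, against 48.5 in T+O. T+O was 1.93 times the highest T+T value, and the log2 difference was -0.94 (SD 0.19, n = 3).

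In all, 6 of the 10 probe sets were at least 1.5-fold lower on every T+T array, where 308 of all 12422 (2.48%) were (692 without T+T replicate 3). They were those of Nipbl, Smc4, Smc2, Smc3 and Smc6 and the dimmer one of Stag2. None of the 10 was at least 1.5-fold higher, where 215 (1.73%) were. The brighter Stag2 probe set missed the limit on T+T replicate 1 only, at -0.38. Below T+O by any amount on all 3 T+T arrays were 9 of the 10, where 2881 of 12422 (23.2%) were. The median log2 difference was -0.93 over the 10 probe sets and 0.03 over all 12422. Since the genes were picked with these differences known, nothing is read from the counts. Of the 10 probe sets 9 passed the filter, and 3 of these, those of Smc2 and Smc6 and the brighter one of Stag2, had a T+T mean under the filter level and passed only through T+O.

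**Figure D2:**
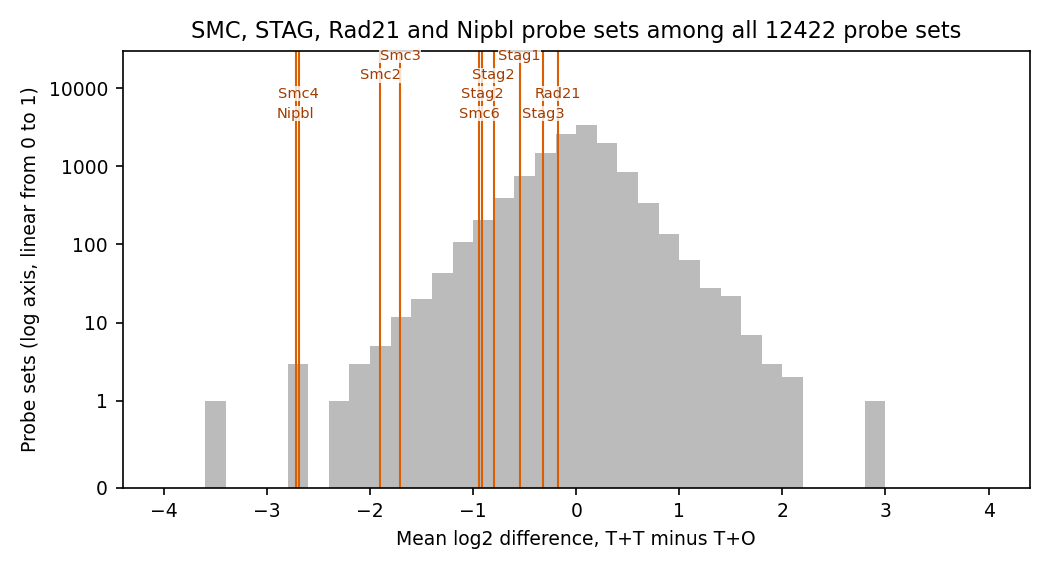
Number of probe sets (vertical axis, log above 1) by mean log2 difference T+T minus T+O (horizontal axis) for all 12422 probe sets, with the 10 probe sets of the SMC, STAG, Rad21 and Nipbl genes as orange lines. Nipbl at -2.72 and Smc4 at -2.69 lie in the far lower tail, and Rad21 at -0.18 and Stag3 at -0.32 lie within the bulk.

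The T+O array also differed from the T+T arrays in a measure of RNA quality. The control gene Gapdh is probed at both transcript ends, and its 3′ signal divided by its 5′ signal was 0.886, 0.837 and 0.809 in T+T, against 1.20 in T+O, and that quotient for pyruvate carboxylase was 1.93, 2.00 and 1.76 in T+T, against 3.76 in T+O. For Actb it was 1.66, 1.40 and 1.17 in T+T, against 1.53 in T+O, within the T+T range. For the transferrin receptor it was 1.52, 3.39 and 3.12 in T+T, against 9.5 in T+O, with 5′ signals as low as 2.74. The ratios of Gapdh, pyruvate carboxylase and the transferrin receptor moved with the gaps of Smc4, Nipbl, Smc2 and Smc3, and their part in those gaps was not tested. Of the spermatogonia markers, 3 of 8 (Dazl, Stra8 and Ddx4) were below T+O on all T+T arrays, where 23.9% of all named genes were. At least 1.5-fold lower on each was 1 of 8 (Dazl), where 2.56% of all named genes were. Kit and Uchl1 were above T+O on all T+T arrays. The median log2 difference of the 8 was -0.11. Among the spermatocyte markers Sycp1, a gene of the synaptonemal complex, had 13.5, 38.5 and 36.2 in T+T, against 390 in T+O. Its log2 difference of -3.42 (SD 0.59, n = 3) was larger than that of any of the 10 probe sets, while the other 4 named genes of its list were not below T+O on every T+T array. Of these, Hspa2 (log2 difference 0.27) and Ccna1 (0.57) were above T+O on all T+T arrays, and Sycp3 and Dmc1 lay on both sides of it. The median log2 difference of the spermatocyte list was 0.07. The part of these cells in the gaps was not tested.

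A list of 40 further genes held other SMC complex subunits, cohesin regulators, and mitotic kinases and topoisomerases that act on chromosomes. Of these genes 23 were named on the array and 20 passed the filter. T+T was compared with T+O in limma, with p-values adjusted over all 7453 probe sets, of which 2 (0.0268%) passed at 0.05 and both were higher in T+T (leaving out T+T replicate 1, 2 or 3 in turn gave 63, 12 and 1). Of the 20 genes none passed (limma, lowest adjusted p = 0.26), and 3 had an unadjusted p under 0.05, Bub1, Top2a and Top1, where 581 of the 7453 probe sets (7.8%) did. Of the 23 genes 10 lay below T+O on all 3 T+T arrays, where 1974 of the 8251 named genes (23.9%) did. The median log2 difference of the 23 was -0.05, against 0.03 for the brightest probe sets of all 8251 named genes.

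The other condensin subunits measured, 2 kleisins, differed less than its ATPases. Since Smc2 and Smc4 were given without a test, the test of the kleisins does not set them apart from these ATPases. Ncaph, the kleisin of condensin I, had 38.5, 48.4 and 44.3 in T+T, against 52.5 in T+O, a log2 difference of -0.22 ± 0.28 (SE; adjusted p = 0.91 in limma). Ncaph2, the kleisin of condensin II, had 112, 81.5 and 95.6 in T+T, against 99.4 in T+O, and a log2 difference of -0.05 ± 0.24 (SE; adjusted p = 0.98 in limma). T+O fell inside the T+T range for Ncaph2 and just above it for Ncaph.

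Mau2, which forms the loader together with NIPBL, had 42.2, 36.2 and 35.5 in T+T, against 32.2 in T+O. All T+T arrays lay above T+O for Mau2 and below it for Nipbl. The log2 difference of Mau2 was 0.18 ± 0.30 (SE; adjusted p = 0.94 in limma). Ctcf, which stops cohesin at loop anchors, was the lowest of the cohesin regulators with 22.3, 41.5 and 31.4 in T+T, against 43.9 in T+O (limma, adjusted p = 0.86). Pttg1, the separase inhibitor securin, was the highest with 884, 879.7 and 891 in T+T, against 716 in T+O (limma, adjusted p = 0.73).

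The non-SMC subunits Nsmce1, Nsmce3 and Nsmce4a, which work with SMC6, had log2 differences of 0.11, -0.03 and 0.13. For Nsmce4a, the highest of the SMC complex subunits, the signal was 106, 103 and 102 in T+T, against 94.5 in T+O (limma, adjusted p = 0.94). Rad50, an SMC-like ATPase of the complex that senses DNA breaks, had 195, 153 and 206 in T+T, against 239 in T+O, and its partner Nbn was the lowest of the group at 18.3, 24.4 and 28.4 in T+T, against 33.9 in T+O (limma, adjusted p = 0.76 for Rad50 and 0.87 for Nbn). Rad50, Mre11a and Nbn lay below T+O on every T+T array by less than Smc6 did.

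**Figure D3:**
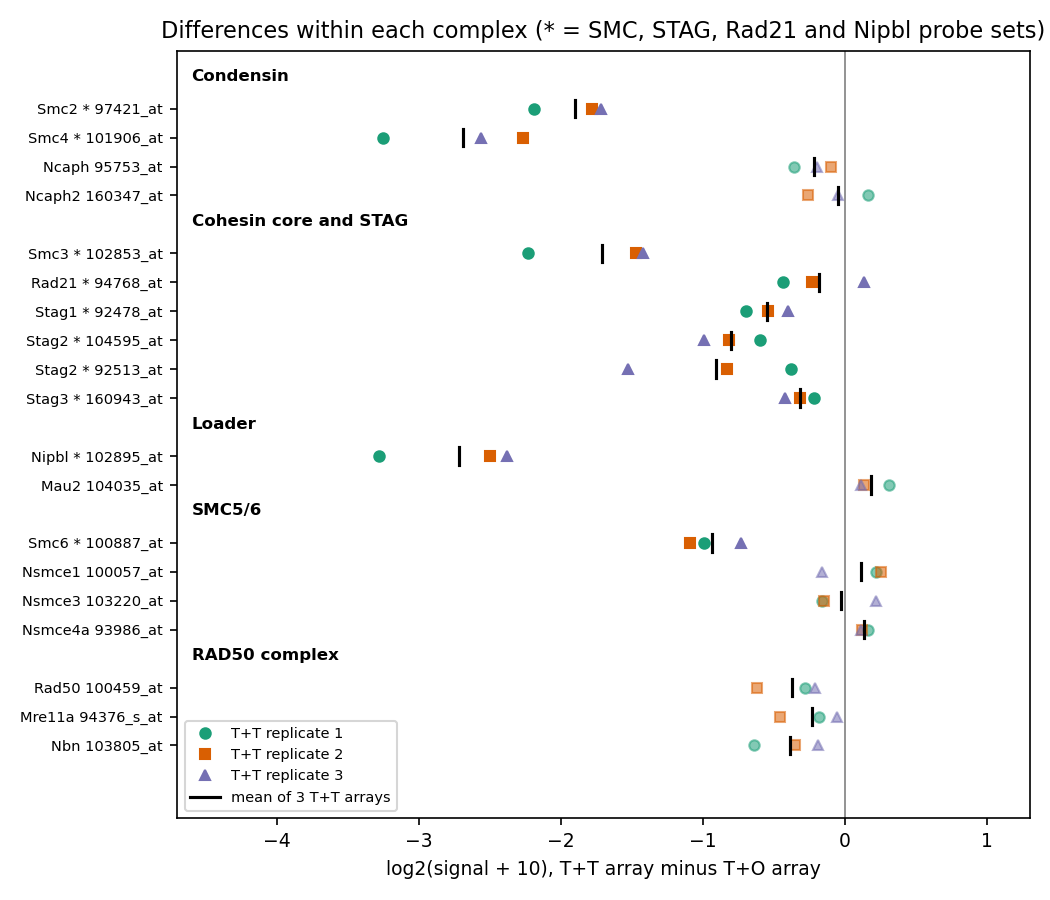
Difference of each T+T array from the T+O array on the log2(signal + 10) scale, by complex, with coloured points for the 3 T+T arrays and a black bar for their mean. The condensin, loader and SMC5/6 panels hold an SMC or loader gene well below 0 (Smc4 at -2.69, Nipbl at -2.72, Smc6 at -0.94) beside partners between -0.22 and 0.18.

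Among kinases and topoisomerases that act on the same chromosomes, 3 of 9 genes, Bub1, Top2a and Top2b, were at least 1.5-fold lower on every T+T array, where 211 of the 8251 named genes (2.56%) were. In the lists of SMC complex subunits and of cohesin regulators, 0 of 8 and 0 of 6 genes were. Bub1, a checkpoint kinase that guards centromeric cohesion, had 61.5, 88.2 and 98.3 in T+T, against 206 in T+O, a log2 difference of -1.24 ± 0.28 (SE; adjusted p = 0.26 in limma). Top2a, which untangles chromosomes together with condensin, had 75.9, 85.3 and 109 in T+T, against 202 in T+O (limma, adjusted p = 0.26). Both showed T+O above all T+T arrays without passing the test. Top2b, at 7.48, 12.5 and 12.9 in T+T, against 32.5 in T+O, was too dim for the filter and was not tested. Plk1, which releases cohesin from chromosome arms, was the highest of the group with 566, 496 and 390.1 in T+T, against 385 in T+O (limma, adjusted p = 0.81).

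The 3 T+T arrays were then compared among themselves, which leaves out the T+O array that all the differences above share. T+T replicate 1, the one described as given testosterone propionate for 4 h, was set against T+T replicates 2 and 3 in a limma fit with 1 residual degree of freedom. Of the 7453 probe sets 13 (0.174%) passed. None of the 9 probe sets of the SMC, STAG, Rad21 and Nipbl genes in that fit passed in limma (lowest adjusted p = 0.22), and 1, that of Smc4, had an unadjusted p under 0.05, where 446 of the 7453 (5.98%) did. The filter used all 4 arrays, so the 3 probe sets that passed it only through T+O were among the 9. With the filter set on the T+T arrays alone, chosen after seeing the data, 6 were left and none passed in limma (lowest adjusted p = 0.40), while 2 of all probe sets passed. Smc4 had 152 on T+T replicate 1, against 308 and 251 on replicates 2 and 3, a log2 difference of -0.83 ± 0.24 (SE; adjusted p = 0.22 in limma). Nipbl differed by -0.84 ± 0.45 (SE; adjusted p = 0.90 in limma), and Smc3 by -0.79 ± 0.48 (SE; adjusted p = 0.99 in limma).

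The order of the T+T arrays was not the same for all the genes. T+T replicate 1 was the lowest of the 3 for Smc4, Nipbl, Smc2, Smc3, Stag1 and Rad21, which is 6 of 10 probe sets against 35.1% of all probe sets. It was the highest for Stag3 and for both Stag2 probe sets, whose T+T means lay below the filter level. T+T replicate 1 stayed the lowest for those 6 under each of the 4 scalings tried, while for Stag3 T+T replicate 3 was the highest without scaling. If the descriptions of T+T replicates 2 and 3 are followed in place of the titles, T+T replicate 1 stands against the other 3 arrays. Under that reading 3 of the 10 probe sets were at least 1.5-fold lower than on each other array, where 264 of all 12422 (2.13%) were. They were those of Smc4, Nipbl and Smc3, with mean log2 differences of -1.64, -1.66 and -1.27. The other 3 arrays include T+O, which was used in choosing the genes, so nothing is read from this count. Among those arrays Smc4 still had 1526 on T+O, against 308 and 251 on T+T replicates 2 and 3. With T+O left out, the differences of T+T replicate 1 were -0.83 for Smc4, -0.84 for Nipbl and -0.79 for Smc3.

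The genes with the most similar pattern were found among 5668 other named genes by the Euclidean distance between log2 values centred over the 4 arrays. Smc4 and Nipbl were 0.29 apart, closer to each other than either was to any of those genes. They were chosen with their gaps to T+O known, and the distance includes these gaps, so nothing is read from their closeness. The nearest to both was Zfp638, a nucleic acid-binding nuclear protein, with 11.8, 23.7 and 16.7 in T+T, against 164 in T+O, at a distance of 0.31 from Smc4 and 0.45 from Nipbl. Next to Smc4 came the synaptonemal complex gene Sycp1 (0.66), Matr3 (0.72), Zfp644 (0.78) and Zfp62 (0.79). Next to Nipbl came Zfp644 (0.60), Sycp1 (0.63), Matr3 (0.76) and Rev3l (0.78). Zfp638 and Zfp62 had T+T means under the filter level of 22.7 and passed the filter only through T+O. Zfp62 had 10.1, 18.3 and 12.8 in T+T, against 77.8 in T+O. The T+T means of Sycp1, Matr3, Zfp644 and Rev3l lay above that level.

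Smc2 had nearer neighbours, with the nuclear matrix gene Matr3 at 0.17, Myo9a at 0.19, Fyttd1 at 0.25, Rev3l at 0.27 and Zfp62 at 0.28. Smc2 was 0.33 from Smc3 and 0.79 from its partner Smc4. The added offset shrinks the gap of the dim Smc2, so its distances do not set it apart from Smc4. With an offset of 1 the log2 difference was -2.55 for Smc2, -2.74 for Smc4 and -2.04 for Smc3. With the offset at the 50th percentile it was -1.16, -2.57 and -1.21. Matr3 had 328, 517 and 473 in T+T, against 1638 in T+O, on a probe set whose name marks possible cross-hybridisation within a gene family. Stag3 had other neighbours, at distances of 0.03 to 0.06: Wbp1l, Nop56, Pigx, Col4a1 and Dlst. All distances rest on 4 arrays and share the single T+O array.

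**Figure D4:**
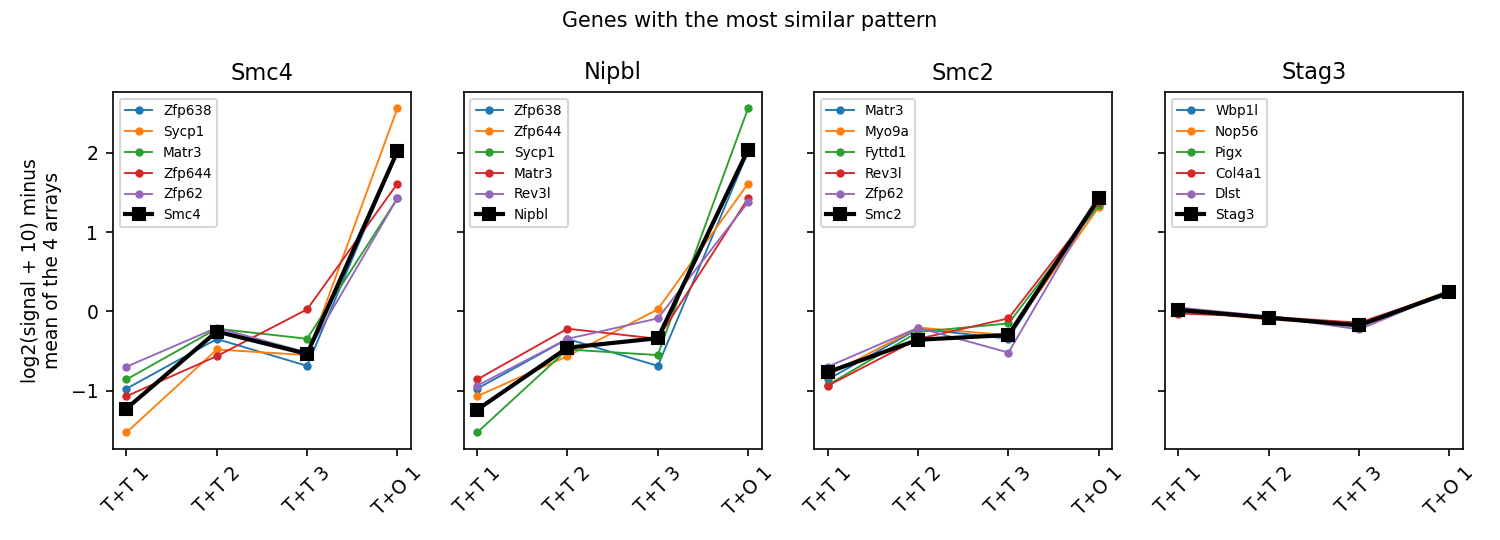
Centred log2(signal + 10) over the 4 arrays for Smc4, Nipbl, Smc2 and Stag3 (black squares) and the 5 genes nearest to each (coloured lines, which join arrays that have no order). The T+O point stands far above the T+T points for the first 3 genes and their neighbours, and for Stag3 all 4 points lie close together.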

How the data were processed

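Total RNA of hpg mouse testes was measured on 4 one-colour arrays. The deposited values are linear intensities, with 1 value for each array and probe set; how the authors made them is not stated in the labels. The 66 control probe sets were set aside, each array was scaled to a common mean after trimming 2% at each end, an offset of 10 (the 25th percentile of scaled values) was added, and log2 was taken of the deposited intensities so scaled. The offset shrinks differences of dim signals. Probe sets with a mean above the 40th percentile (22.7) were kept for testing, 7453 of 12422. The number of arrays limits the precision.

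Gene symbols came from the platform annotation, updated by gene ID through RefSeq of GRCm38.p6, which held 10817 of 10833 probe sets with a single symbol; 396 had several and 1193 are unnamed here. A gene outside the set was represented by its brightest probe set. Groups follow the sample titles. Differences were tested with limma 3.58.1 in R 4.3.3 (lmFit, eBayes with an intensity trend, two-sided, Benjamini-Hochberg over all kept probe sets, threshold 0.05). The lone array of each fit is assumed to vary like the others. The genes, lists and tests were chosen with earlier results of these data known. By rule, genes outside the set were named if they passed or were at least 1.5-fold to either side on every T+T array. The rule also took the highest and lowest of each role group and the 5 nearest patterns. Further genes were named outside the rule: other subunits (Ncaph, Ncaph2, Mau2, Nsmce1, Nsmce3, Rad50 and Mre11a), Top1, Incenp and the cell type markers. Protein lengths and sequences were not used here. Alternatives were other scalings, offsets, filters, no intensity trend, leaving out each T+T array, and the reading of T+T replicates 2 and 3 as withdrawn.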

Additional observations from a re-analysis of the deposited data

How the results depend on the processing

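No paired analysis was possible because only 1 array carries the T+O title. The count of 6 of 10 SMC, STAG, Rad21 and Nipbl probe sets at least 1.5-fold lower in T+T was 4 after raising the offset to the 50th percentile (35), 6 to 7 with 1 T+T array left out, 7 with T+T replicate 1 alone against T+O, and 3 when the descriptions of T+T replicates 2 and 3 were followed, so that both counted as withdrawn. That reading turned the sign for Stag3 (0.02) and for both Stag2 probe sets (0.41 on the brighter and 0.01 on the dimmer); the cause was not tested. Of 100 recomputed log2 differences, 3 turned sign in this way, 23 moved by more than the spread of the T+T arrays and 74 by less. Over all probe sets, the 308 lower became 112 with the raised offset, 597 with an offset of 1, 1362 with T+T replicate 1 alone and 400 to 692 with 1 T+T array left out (692 without T+T replicate 3). The 215 higher became 57, 589 and 983 under the first 3 of these, 108 without scaling, and 376 to 399 with 1 T+T array left out. Without scaling the median of all probe sets was -0.11. The 2 probe sets past the limma threshold became 0 with quantile normalization, no filter, no intensity trend or the withdrawn reading, 6 with median scaling or the raised offset, 5 without scaling, and 1 to 63 with 1 T+T array left out (63 without T+T replicate 1, 12 without replicate 2). The 13 of T+T replicate 1 against replicates 2 and 3 became 1 with quantile normalization, 2 with the filter set on the T+T arrays alone and 0 with no filter or no intensity trend. The 3 further genes at least 1.5-fold lower became 0 under the withdrawn reading and 6 with T+T replicate 1 alone. This count, the setting with T+T replicate 1 alone and the filter on the T+T arrays were chosen after seeing the data.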

Other observations

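Several chromosome genes outside the set had more than 1 probe set, and these did not always agree. Plk1 had 3 probe sets with log2 differences of 0.31, 0.75 and 0.15, and on each the mean of T+T was the higher. The probe set at 0.75 was at least 1.5-fold higher on every T+T array, with 373, 307 and 327 in T+T, against 195 in T+O. Its name, like that of the probe set at 0.15, marks possible cross-hybridisation within a gene family. Incenp, a subunit of the chromosomal passenger complex, differed by -0.09 on its brighter probe set and by 0.42 on the other, which had 50.7, 79.7 and 81.7 in T+T, against 49.1 in T+O. Pttg1 differed by 0.30 on its bright probe set and by -0.72 on a dim one with 16.9, 9.55 and 22.6 in T+T, against 32.4 in T+O. The 2 dim probe sets of Bub1 differed by -0.43 and -0.51, on the same side as the bright one but at signals of 17.3 or less.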
